A study of Mus musculus with 16 samples.

Results

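The 10 genes described here are ones that sensory neurons switch on or keep high when their axons are damaged, measured in the lumbar dorsal root ganglia (DRG) of mice with paw inflammation. They are Atf3, Jun, Sox11, Gap43, Tubb6, Sprr1a, Csf1, Gadd45a, Ecel1 and Flrt3, chosen by gene symbol, and all 10 were found among the 36722 genes of the deposited table. All mice were C57BL/6 and had received 20 µl of carrageenan at 2% in the paw, the controls included. After 6 days, PBS (vehicle, 5 libraries), 1 µg of the IL4-10 fusion protein (6 libraries) or 0.5 µg each of IL4 and IL10 (the combination, 5 libraries) was injected intrathecally, and DRG were taken 6 hours later. The series sets the fusion protein, in which both cytokines form a single molecule, against the unlinked pair. No group without carrageenan and none with a cut nerve was analysed here, so each value is a comparison between treatments of inflamed mice.

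A cut or crushed axon sends signals back to the cell body, which then turns on a growth programme. The transcription factors Atf3, Jun and Sox11 act early in it and drive later genes. Gap43 and the tubulin Tubb6 serve the growing axon, Sprr1a promotes outgrowth, Csf1 is secreted by injured neurons and acts on macrophages and microglia, and Atf3 is widely used as a marker of neurons with a damaged axon. Several of the genes, Jun, Atf3, Gadd45a and Csf1 among them, are also induced by stress and cytokines in glial, vascular and immune cells.

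Jun and Atf3 are members of the AP-1 and ATF families, which bind short, nearly symmetrical DNA motifs, so the promoters of the 10 genes were searched for these. RefSeq promoters of build GRCm38.p6, from 250 bases before to 50 bases after a gene start, were at hand for 8 of the 10 genes. Both strands were searched for the AP-1 motif TGANTCA, the ATF/CRE motif TGACGTCA and the STAT motif TTCNNNGAA, and N stands for any base. The AP-1 motif lay in 1 of the 8 promoters and in 7.81% of all 32851, the ATF/CRE motif in 0 of 8 and 1.79%, and the STAT motif in 0 of 8 and 8.3%. A variant of the ATF/CRE motif, TGACATCA, was chosen after the promoters had been read. It lay in 4 of the 8, those of Jun, Flrt3, Sox11 and Sprr1a, and in 3.62% of all. The 4 are shown because they share this motif. They are written 5′ to 3′ along the gene's own strand, which is the minus strand for each, and capitals mark matches. In Jun, Flrt3 and Sox11 the variant began 45, 41 and 42 bases before the gene start, and in Sox11 it reads as its reverse complement. In Sprr1a it began 207 bases before the start, with AP-1 matches at 146 and 116 bases.
Jun, chr4:95052173-95052472: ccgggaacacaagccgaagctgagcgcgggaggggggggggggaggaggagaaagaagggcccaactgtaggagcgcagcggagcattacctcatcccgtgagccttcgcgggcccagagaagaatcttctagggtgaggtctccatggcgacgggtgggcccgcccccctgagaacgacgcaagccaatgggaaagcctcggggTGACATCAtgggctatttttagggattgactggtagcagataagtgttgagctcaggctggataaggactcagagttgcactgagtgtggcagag
Flrt3, chr2:140671427-140671726: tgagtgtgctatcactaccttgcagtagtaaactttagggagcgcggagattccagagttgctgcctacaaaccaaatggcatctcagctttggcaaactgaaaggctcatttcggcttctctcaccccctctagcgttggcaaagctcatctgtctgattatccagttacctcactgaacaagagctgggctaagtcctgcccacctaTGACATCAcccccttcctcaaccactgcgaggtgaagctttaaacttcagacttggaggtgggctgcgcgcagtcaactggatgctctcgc
Sox11, chr12:27342669-27342968: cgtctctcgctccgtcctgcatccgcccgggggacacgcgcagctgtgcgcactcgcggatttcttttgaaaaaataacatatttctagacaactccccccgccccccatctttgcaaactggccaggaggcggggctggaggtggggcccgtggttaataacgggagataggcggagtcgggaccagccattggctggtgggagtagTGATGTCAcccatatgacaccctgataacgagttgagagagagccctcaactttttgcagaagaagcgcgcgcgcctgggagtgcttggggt
Sprr1a, chr3:92485832-92486131: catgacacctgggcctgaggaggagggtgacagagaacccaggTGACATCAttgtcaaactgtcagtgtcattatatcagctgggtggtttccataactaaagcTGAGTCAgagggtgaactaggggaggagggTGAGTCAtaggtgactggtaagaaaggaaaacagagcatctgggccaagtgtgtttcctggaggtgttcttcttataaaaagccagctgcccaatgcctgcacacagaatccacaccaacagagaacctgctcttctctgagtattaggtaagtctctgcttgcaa

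The values are whole-number scaled values, recovered from the deposited log2 values. They are not read counts, and the read depth is unknown. The most common value, 1, was taken as that of a gene without signal, and the lowest value was 0. All 12 neuronal markers were measured, with a summed scaled value of 190766 to 310187 per library. Of the markers of spinal cord oligodendrocytes, Mog and Opalin reached at most 3 and 2. All 7 markers of spinal cord glia together summed to 1129 to 1628 per library. Among them, the vehicle means were 500 for Aqp4, 658 for Gja1 and 215 for Sox6. Fusion protein replicate 1 stood apart from its group. The SD of its deviations from the group mean over all tested genes was 0.236, against 0.0849 to 0.203 in the other 15 libraries. The labels also number the samples, and all combination libraries, 2 fusion protein libraries and 1 vehicle library carry the later numbers, 12 to 19. Treatment and this split therefore overlap.

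Gap43 was far ahead of the other 9 genes. Per kilobase of exon its scaled value was 2595 ± 359 (SD over the 16 libraries), higher than in 98.4% of the tested genes. Jun followed at 286 ± 107, then Gadd45a at 172 ± 45.4, Tubb6 at 120 ± 56.5, Flrt3 at 105 ± 23.4, Atf3 at 81.0 ± 64.1 and Csf1 at 65.8 ± 17.3. Each of the neighbours in that order from Gadd45a to Csf1 differed by less than the larger of their SDs. Sprr1a, at 15.1 ± 19.1, Sox11, at 2.84 ± 0.984, and Ecel1, at 1.89 ± 0.909, lay near the bottom. These 3 did not reach the minimum level for testing, a mean scaled value of about 31.8, so 7 of the 10 genes were tested. Any count among the 7 leaves out the 3 genes that an injured neuron raises from almost nothing.

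**Figure D1:**
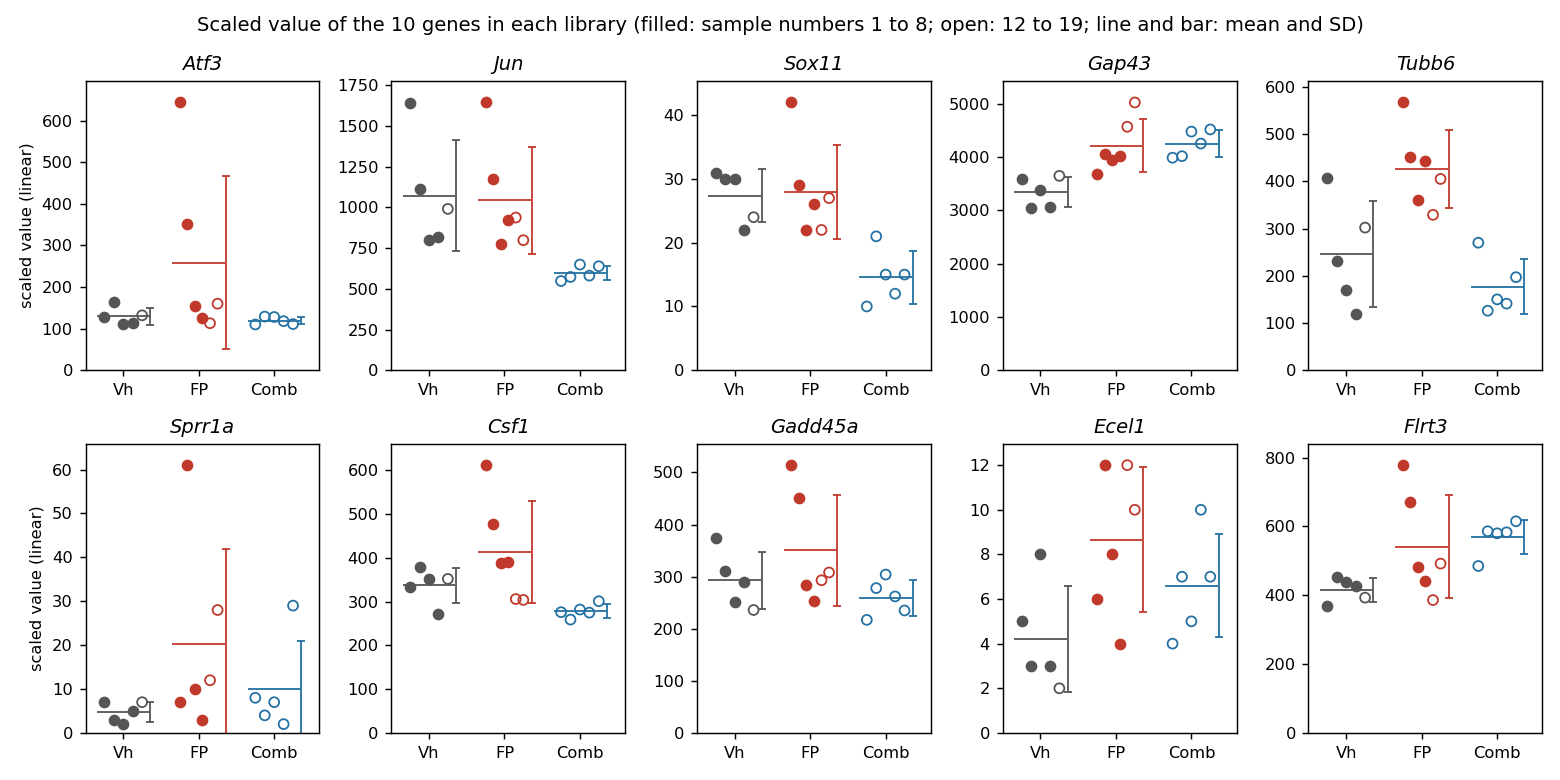
Scaled value (linear axis from 0) of each of the 10 genes in every library of vehicle (Vh), fusion protein (FP) and combination (Comb), with the mean and SD. Atf3 is far above the rest in 2 of the 6 fusion protein libraries, Jun is lower in all 5 combination libraries than in any other library, and Tubb6 is higher in all 6 fusion protein libraries than in any combination library.

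With the fusion protein, Gap43 and Tubb6 rose against vehicle, and the other 5 tested genes did not pass. With the combination, Gap43 and Flrt3 rose and Jun fell. Between the treatments, Tubb6, Jun and Csf1 were higher with the fusion protein. The counts were thus 2 of 7 for the fusion protein against vehicle, where 25.8% of all tested genes were called (12% higher, 13.7% lower). The combination gave 3 of 7 against vehicle, where 36.5% were called (24.2% higher, 12.3% lower). Set against each other, the treatments gave 3 of 7, all higher with the fusion protein, where 29.5% were called (7.35% higher, 22.2% lower). The lean of all genes to lower calls, 984 higher and 2966 lower, was 972 and 1411 with quantile normalization and 661 and 914 with GC and length trends removed. Both shares of called members against vehicle are near their backgrounds. The median log2 differences of the 7 genes were 0.28, -0.12 and 0.40, against -0.02, 0.06 and -0.09 over all tested genes. Both comparisons with vehicle share the vehicle libraries. In whole ganglia, a change in the number of cells of a type and a change in RNA per cell cannot be told apart.

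**Figure D2:**
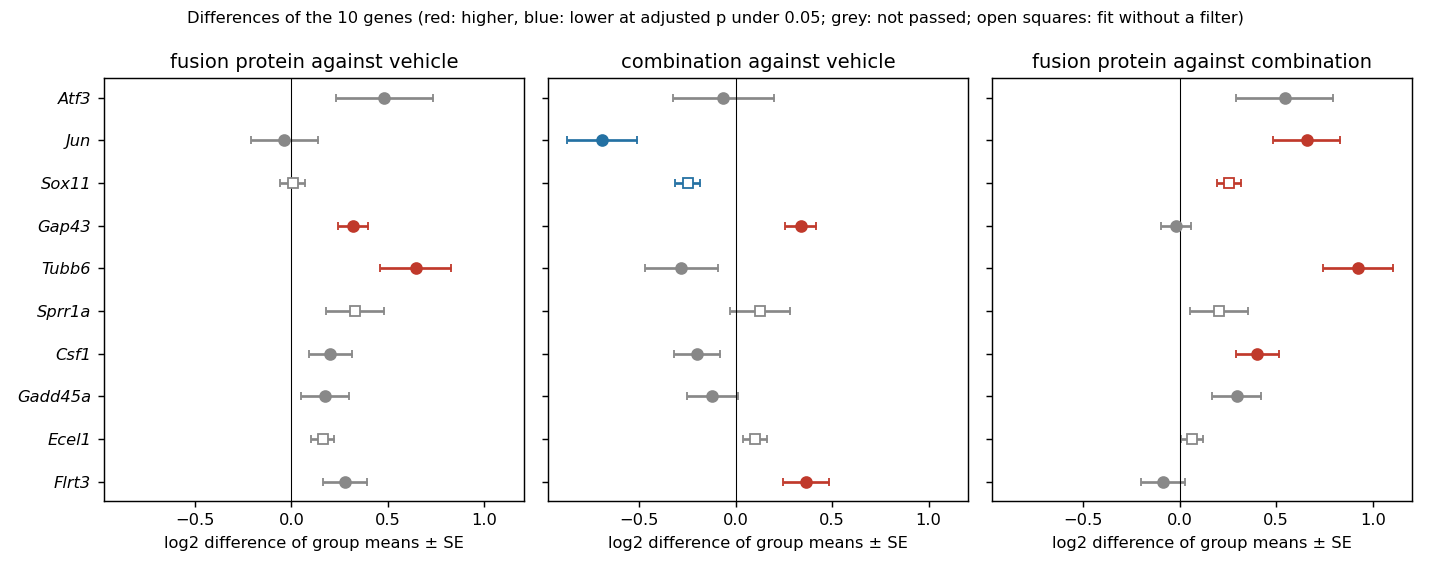
Log2 difference of group means with its SE for the 10 genes in the 3 comparisons. Tubb6 has the difference farthest from 0, at 0.92 for the fusion protein against the combination, and Atf3 passes in none of the 3.

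Atf3, the transcription factor most used to mark damaged neurons, did not pass in any comparison. Its scaled values were 128, 163, 111, 113 and 132 in vehicle and 110, 129, 128, 118 and 111 with the combination. The fusion protein libraries ran from 113 through a median of 157 to 644. Replicates 1 and 2 of that group, at 644 and 352, were above every other library, and its other 4 libraries, at 113 to 160, lay within the vehicle range. The log2 difference from vehicle was 0.48 ± 0.25 (SE, adjusted p = 0.174), with a 95% interval of -0.05 to 1.02. Without these 2 libraries it was 0.06 (adjusted p = 0.638), an omission chosen after the values were seen. The fusion protein stood 0.54 ± 0.25 from the combination (adjusted p = 0.108), and the combination stood -0.06 ± 0.26 from vehicle (0.871). Atf3 (ENSMUSG00000026628) is on chromosome 1, 191170296 to 191218039, in 5 merged exons.

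Fusion protein replicate 1 was also the highest of its group for Jun, Sox11, Gadd45a, Csf1, Tubb6 and Flrt3, in all 7 of the 10 genes. Its summed macrophage markers stood at 7662, against 3454 to 4676 in the other 5 libraries of the group, and its neutrophil markers at 7728 against 2129 to 4457. Its neuronal markers, at 190766, were the lowest sum of all 16 libraries. Replicate 2, second for Atf3, had the lowest macrophage sum of its group (3454) and the lowest neutrophil sum (2129). The part of these cells in the Atf3 values was not tested.

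Jun, the AP-1 subunit that regenerating neurons need, was lower with the combination. Its scaled values were 548, 573, 649, 581 and 639 with the combination and 1642, 1114, 800, 819 and 991 in vehicle. The fusion protein group ran from 776 through 929.5 to 1645. No combination library reached the lowest library of either other group. Groups failed to overlap in these directions for 7.91% of tested genes (combination below vehicle) and 3.09% (fusion protein above combination). The difference from vehicle was -0.69 ± 0.18 (adjusted p = 0.00668), a mean of 0.557 times the vehicle mean. The fusion protein exceeded the combination by 0.66 ± 0.17 (adjusted p = 0.0138) and differed from vehicle by -0.04 ± 0.17 (0.897, 95% interval -0.40 to 0.33). Both calls ended when trends with GC content and exonic length were removed from each library (-0.49, adjusted p = 0.0686, and 0.50, 0.0818). They also ended with the late sample number as a covariate (-0.52, 0.107, and 0.52, 0.0782). Among samples numbered 12 to 19, vehicle replicate 5 stood at 991 and fusion protein replicates 5 and 6 at 938 and 799. The combination libraries, all in that range, stood at 548 to 649. Jun (ENSMUSG00000052684, chromosome 4, 95049034 to 95052222) has a single exon, and 232 of its bases overlap the antisense gene Junos. The strand setting of the counting is not given in the sources used here, and Junos had a mean scaled value of 26.6.

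Sox11, which sets growth genes in motion in developing and injured sensory neurons, was weakly expressed and is given from the fit without a filter. In that fit 20.4% of 25023 genes were called for the combination against vehicle (7.99% lower), 12.6% for fusion protein minus combination (3.8% higher) and 14.5% for fusion protein minus vehicle. Its scaled values were 31, 30, 30, 22 and 24 in vehicle and 10, 21, 15, 12 and 15 with the combination. With the fusion protein they ran from 22 through 26.5 to 42. Every combination library was below every other library. Of the 25023 genes, 5.53% separated in this way from vehicle and 2% from the fusion protein. The combination was lower than vehicle by a log2 difference of -0.25 ± 0.07 (adjusted p = 0.0121), a mean of 0.533 times that of vehicle. The fusion protein was higher than the combination by 0.25 ± 0.06 (adjusted p = 0.0188). The fusion protein differed from vehicle by 0.01 ± 0.06 (adjusted p = 0.98). The log2 scale of the table compresses differences this near the floor. Sox11 (ENSMUSG00000063632) lies on chromosome 12, 27334264 to 27342574, as a single exon.

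Gap43, a membrane protein of growth cones, was higher after both treatments. Vehicle libraries stood at 3580, 3051, 3377, 3064 and 3647, combination libraries at 3988, 4017, 4478, 4254 and 4518, and fusion protein libraries from 3673 through 4034 to 5025. Every treated library was above every vehicle library. Groups failed to overlap in this direction for 7.76% of tested genes with the fusion protein and 15.1% with the combination. The differences from vehicle were 0.32 ± 0.08 for the fusion protein (adjusted p = 0.006) and 0.34 ± 0.08 for the combination (0.00359). The treatments differed from each other by -0.02 ± 0.08 (0.867), with a 95% interval of -0.18 to 0.15. Neither passed after correction for GC content and length, which left 0.07 (0.564) and -0.01 (0.953). For the combination the call also ended with quantile normalization (0.17, 0.123) and with the late sample number (0.15, 0.205). Gap43 (ENSMUSG00000047261, chromosome 16, 42248442 to 42340651) has a GC content of 40.2% and a short exonic length of 1523 bases.

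Tubb6, a beta-tubulin isotype of low level in resting neurons, separated the treatments most. Its scaled values were 270, 126, 150, 141 and 197 with the combination and 406, 231, 170, 120 and 302 in vehicle. They ran from 329 through 424 to 567 with the fusion protein. All 6 fusion protein libraries were above all 5 combination libraries, as was the case for 3.09% of tested genes. Vehicle overlapped both groups. The fusion protein was higher than the combination by 0.92 ± 0.18 (adjusted p = 0.00514), a ratio of means of 2.41. This difference passed in all 30 alternative fits, at 0.77 to 1.30. Against vehicle the fusion protein was higher by 0.64 ± 0.18 (adjusted p = 0.0169). That call ended without fusion protein replicates 1 and 2 (0.54, 0.0661). It also ended within samples numbered 1 to 8, where the difference was 0.79 (0.0558). Samples numbered 12 to 19 hold only 1 vehicle library, and the difference there was 0.21. The combination differed from vehicle by -0.28 ± 0.19 (0.268). Tubb6 (ENSMUSG00000001473, chromosome 18, 67390717 to 67402749) shares long stretches with other beta-tubulin genes, so reads may be split among them.

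Sprr1a, a small proline-rich protein that promotes axon outgrowth and is otherwise a protein of skin and other epithelia, was nearly absent. It stood at 7, 3, 2, 5 and 7 in vehicle, at 8, 4, 7, 2 and 29 with the combination and from 3 through 11 to 61 with the fusion protein. The 3 libraries above 20 were fusion protein replicates 2 (61) and 6 (28) and combination replicate 5 (29). In the fit without a filter the fusion protein differed from vehicle by 0.33 ± 0.15 (adjusted p = 0.161). The summed keratinocyte markers were 245 in fusion protein replicate 6, the highest of all libraries, and 47 and 63 in the other two. Sprr1a (ENSMUSG00000050359) is on chromosome 3, 92483952 to 92485895.

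Csf1, the growth factor of macrophages and microglia that injured neurons release, was higher with the fusion protein than with the combination. The combination libraries stood close together, at 276, 259, 282, 275 and 301, and vehicle libraries at 333, 379, 351, 272 and 352. The fusion protein libraries ran from 304 through 389 to 612. The lowest fusion protein library was above the highest combination library by 3 units only. Of tested genes, 3.09% separated in this direction. The difference was 0.40 ± 0.11 (adjusted p = 0.0161). It was 0.23 without fusion protein replicates 1 and 2 and still passed. It did not pass with the late sample number (0.23, 0.16), among samples numbered 12 to 19 alone (0.10, 0.462) or with GC and length trends removed (0.34, 0.0768). Against vehicle Csf1 differed by 0.20 ± 0.11 with the fusion protein (0.197) and by -0.20 ± 0.12 with the combination (0.194). Its receptor Csf1r, a macrophage gene named after its value was seen, rose by 0.43 ± 0.15 with the fusion protein (adjusted p = 0.0385). That call ended with the late sample number (adjusted p = 0.05002) and within samples numbered 1 to 8 (0.34, 0.238). Samples numbered 12 to 19 hold only 1 vehicle library, and the difference there was 0.69. Csf1 (ENSMUSG00000014599) is on chromosome 3, 107741048 to 107760469.

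Gadd45a, a stress sensor induced by DNA damage and by axotomy, did not pass. Vehicle libraries stood at 375, 311, 252, 289 and 236, combination libraries at 217, 278, 304, 262 and 235 and fusion protein libraries from 253 through 300.5 to 514. Fusion protein replicates 1 and 2, at 514 and 451, were again above all others. The difference was 0.29 ± 0.13 for fusion protein minus combination (adjusted p = 0.0803) and 0.17 ± 0.13 for fusion protein minus vehicle (0.322). Without both libraries the latter difference was -0.02 (0.887). Gadd45a (ENSMUSG00000036390, chromosome 6, 67035096 to 67037457) shares 337 exonic bases with the opposite-strand transcript E230016M11Rik, which had a mean scaled value of 75.6.

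Ecel1, a neuronal endopeptidase of the endoplasmic reticulum that rises after nerve injury, stayed between 2 and 12 in all 16 libraries. It stood at 5, 3, 8, 3 and 2 in vehicle and 4, 7, 5, 10 and 7 with the combination, and from 4 through 9 to 12 with the fusion protein. The groups overlapped. In the fit without a filter the fusion protein differed from vehicle by 0.16 ± 0.06 (adjusted p = 0.0731). Ecel1 (ENSMUSG00000026247) is on chromosome 1, 87147655 to 87156521.

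Flrt3, an adhesion and guidance receptor on growing axons, was higher with the combination. Vehicle libraries stood at 369, 454, 439, 428 and 393 and combination libraries at 485, 586, 580, 583 and 615. The fusion protein group spread from 386 through 487 to 778. All combination libraries were above all vehicle libraries, as was the case for 15.1% of tested genes. The fusion protein group overlapped both. The combination differed from vehicle by 0.37 ± 0.12 (adjusted p = 0.0223). The call ended without vehicle replicate 1 (0.33, 0.0564), without combination replicate 5 (0.34, 0.0524) and with GC and length trends removed (0.16, 0.209). For the fusion protein the difference from vehicle was 0.28 ± 0.11 (0.0812). It passed without fusion protein replicate 5 (0.35, 0.0263), with the late sample number (0.31, 0.0374) and with that number and trends removed (0.26, 0.0365), and it was 0.09 (0.426) without fusion protein replicates 1 and 2. Against the combination it was -0.09 ± 0.11 (0.566, 95% interval -0.33 to 0.15). Without those 2 libraries the fusion protein group was lower than the combination (-0.28, adjusted p = 0.0112). Flrt3 (ENSMUSG00000051379, chromosome 2, 140650914 to 140671469) sits opposite to Macrod2, with 0 shared exonic bases.

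Among other transcription factors of the injury response, 18 were tested. With the combination 4 fell and 1 rose against vehicle, where 36.5% of all genes were called (24.2% higher, 12.3% lower). The median difference was -0.21 against 0.06 over all genes. Junb, a partner and rival of Jun, fell by 1.07 ± 0.32 on the log2 scale (adjusted p = 0.0168), from a mean scaled value of 209 ± 224 (SD, n = 5) to 33.2 ± 11.6 (n = 5). Myc, a driver of growth, fell by 0.47 ± 0.09 (0.000665), Cebpb by 0.38 ± 0.11 (0.0118) and Egr1, an activity-induced factor, by 0.64 ± 0.22 (0.0309). The mean scaled value (± SD) of Cebpb was 41.4 ± 16.1 in vehicle, 52.2 ± 21.9 with the fusion protein and 17 ± 3.39 with the combination. The last mean lies below the minimum level for testing, about 31.8, so Cebpb was tested through the other groups. With the fusion protein the call was 1 gene lower, the growth-associated factor Klf7 (-0.38 ± 0.11, 0.0167), where 25.8% of all genes were called. Directly compared, Cebpb (0.51 ± 0.11, 0.00566), Junb (1.13 ± 0.30, 0.0166) and Myc (0.29 ± 0.09, 0.0228) were higher with the fusion protein, and Atf2 (-0.31 ± 0.08, 0.0108) and Klf7 (-0.36 ± 0.11, 0.0239) were lower. With GC and length trends removed, Junb alone of these 5 still passed (0.94, 0.0291), and Cebpb (0.26, 0.198) and Myc (0.16, 0.304) did not. Against vehicle, the count of 4 lower with the combination was 2 with GC and length trends removed and 1 with the late sample number, and none of the 4 passed with both. All 4 were also lower among samples numbered 12 to 19, which hold only 1 vehicle library. The differences there were -1.29 for Junb, -0.56 for Myc, -0.31 for Cebpb and -0.60 for Egr1.

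Both paralogues of Gadd45a were lower with the combination, while Gadd45a itself did not pass. Of 11 stress and DNA damage genes, 3 fell with the combination and 8 did not pass (median -0.15), where 36.5% of all genes were called (24.2% higher, 12.3% lower). Gadd45g fell by 0.75 ± 0.25 (adjusted p = 0.0255), from 171 ± 124 (SD, n = 5) to 54.2 ± 18.9, and Gadd45b by 0.31 ± 0.08 (0.00728), from 89.4 ± 22.8 to 55.6 ± 10.1. With the fusion protein 2 rose against vehicle, where 25.8% of all genes were called (12% higher, 13.7% lower). The 2 were Arg1, an arginase of macrophages and injured neurons (1.93 ± 0.25, adjusted p = 0.000123), and the haem oxygenase Hmox1 (0.51 ± 0.16, 0.03). Arg1 had mean scaled values (± SD) of 18.6 ± 12.2 in vehicle, 307 ± 164 with the fusion protein and 54.8 ± 56.1 with the combination. Its vehicle mean lies below the minimum level for testing, about 31.8, so Arg1 was tested through the treated libraries. The Hmox1 call ended with GC and length trends removed (0.35, 0.107), without fusion protein replicates 1 and 2 (0.34, 0.124) and within samples numbered 1 to 8 (0.61, 0.0892). Between the treatments, 5 were higher with the fusion protein and 6 did not pass, where 29.5% of all genes were called (7.35% higher, 22.2% lower). The 5 include Gadd45b (0.52 ± 0.08, 0.000892) and Gadd45g (0.99 ± 0.23, 0.0102). The 3 calls of the combination ended with the late sample number, where the differences were about as large, at -0.82 for Gadd45g (0.0836), -0.27 for Gadd45b (0.0765) and -0.21 for Trib3 (0.0771). They ended too with GC and length trends removed, at -0.54 (0.0546), -0.13 (0.339) and -0.14 (0.214). Within samples numbered 12 to 19, with only 1 vehicle library, the differences were -1.145 for Gadd45g, -0.22 for Gadd45b and -0.29 for Trib3. Of 12 macrophage markers, 7 rose with the fusion protein, where 12% of all genes were called higher, and 2 with the combination, where 24.2% were. The 2, Mrc1 and Cd163, did not pass with the fusion protein (0.13, adjusted p = 0.543, and -0.11, 0.449). Arg1 did not pass with the combination (0.44, 0.197). The macrophage markers summed to 2086 to 3845 in vehicle, 3454 to 7662 with the fusion protein and 2828 to 3863 with the combination. The part of these cells in the Arg1 values was not tested.

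**Figure D3:**
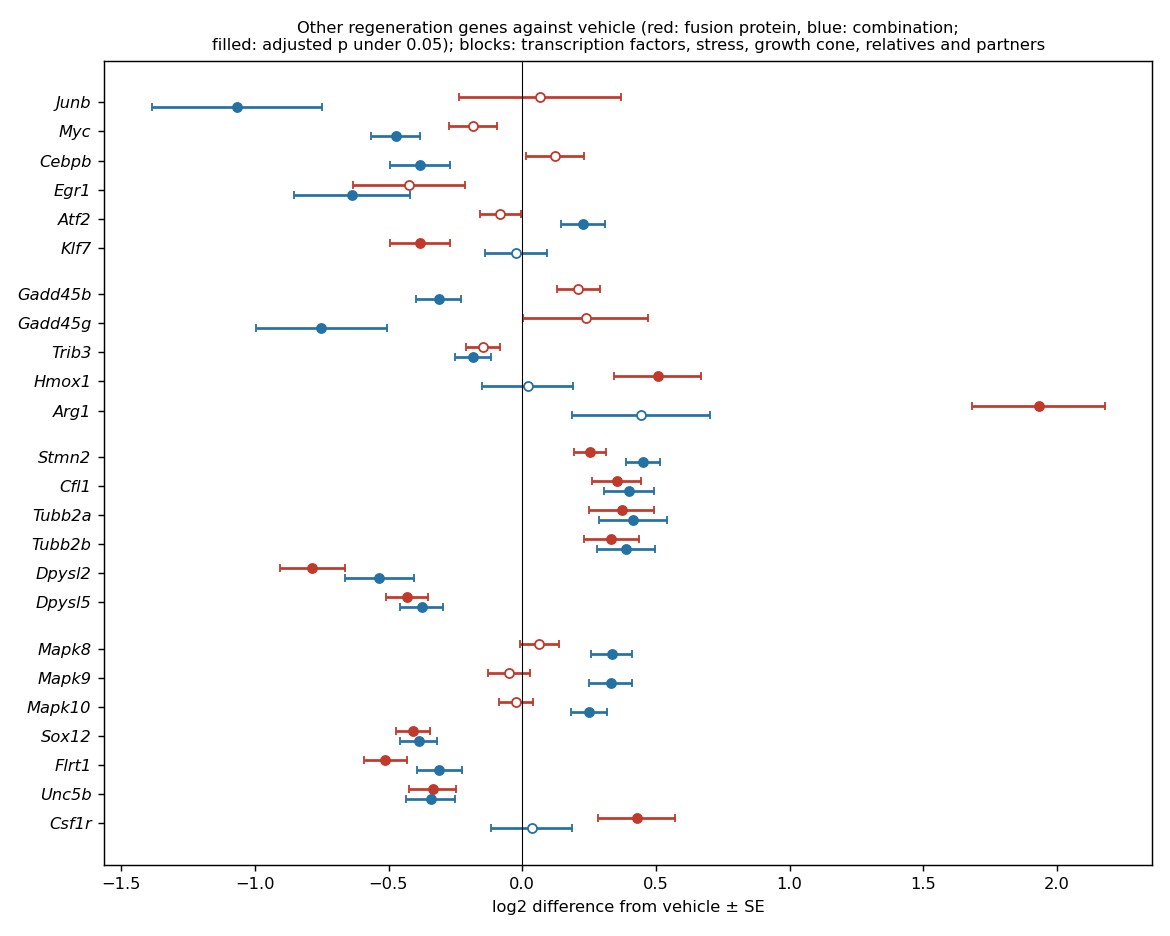
Log2 difference from vehicle, with its SE, of other regeneration genes past the threshold in at least 1 comparison. Junb, Gadd45b and Gadd45g lie left of 0 with the combination only, whereas Stmn2, Cfl1 and the tubulins Tubb2a and Tubb2b lie right of 0 with both treatments.

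Growth cone and cytoskeleton genes changed in both directions. Of 16 tested, 5 rose and 3 fell with the fusion protein, and 5 rose and 2 fell with the combination, beside 25.8% and 36.5% of all genes called. Stmn2, a microtubule regulator of growing axons, rose by 0.25 ± 0.06 (adjusted p = 0.00481) and 0.45 ± 0.06 (3.95e-05), and the actin regulator Cfl1 by 0.35 ± 0.09 (0.008) and 0.40 ± 0.10 (0.0031). The collapsin response mediators Dpysl2 and Dpysl5 fell, Dpysl2 by 0.79 ± 0.12 (0.000245) and 0.53 ± 0.13 (0.00323). The beta-tubulins Tubb2a and Tubb2b, named after their values were seen, rose with both treatments, Tubb2a by 0.37 ± 0.12 and 0.41 ± 0.13. Unlike Tubb6, they did not pass between the treatments. With the late sample number the 5 that rose with the combination were 1. Stmn2 still passed (0.38, 0.00236), and Cfl1 (0.19, 0.168), Tubb2a (0.12, 0.514), Tubb2b (0.20, 0.246) and the lower Dpysl2 (-0.29, 0.136) did not. With GC and length trends also removed, Stmn2 was 0.13 (0.224).

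Of 16 tested peptides and receptors of injured neurons, 3 rose and 2 fell with the fusion protein (25.8% of all genes called), and 5 rose and 2 fell with the combination (36.5%). The neuropeptide galanin, Gal, rose from 113 ± 28.0 to 186 ± 42.8 (SD, n = 5 and 6) with the fusion protein (0.43 ± 0.10, adjusted p = 0.00519). With the combination it reached 158 ± 16.5 (0.29 ± 0.11, 0.0395), a call that ended with the late sample number (0.12, 0.516). Neurotensin, Nts, rose by 0.36 ± 0.08 (0.00265) and 0.52 ± 0.08 (0.000105), which was 0.09 (0.404) and 0.13 (0.234) with GC and length trends removed. Npy and Vip, peptides that axotomised neurons raise from almost nothing, stayed at or below 28 and 5 in every library. Among 13 genes that axotomy lowers, 2 rose and 3 fell with the fusion protein and 4 rose and 1 fell with the combination, against the same 25.8% and 36.5%. Calca, the precursor of the peptide CGRP, rose by 0.43 ± 0.09 (0.0019) and 0.35 ± 0.09 (0.00613). For the combination that call ended with GC and length trends removed (0.17, 0.122) and with the late sample number (0.16, 0.259).

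Kinases and relatives of the 10 genes were followed as well. Of 17 tested, 1 rose and 5 fell with the fusion protein, and 3 rose and 4 fell with the combination, near the 25.8% and 36.5% of all genes called. The 3 that rose with the combination were Mapk8, Mapk9 and Mapk10, the genes of the JNK kinases that phosphorylate Jun. They differed by 0.33 ± 0.08 (adjusted p = 0.00223), 0.33 ± 0.08 (0.00392) and 0.25 ± 0.07 (0.00747), while Jun itself was lower. With the late sample number, Mapk8 still passed (0.42, 0.00471), but Mapk9 (0.28, 0.0532) and Mapk10 (0.23, 0.0614) did not. The fusion protein minus combination differences were -0.27, -0.38 and -0.27, of which Mapk9 alone still passed with GC and length trends removed (-0.24, 0.026). Sox12, a close relative of Sox11, fell after both treatments (-0.41 ± 0.07, 0.000293, and -0.39 ± 0.07, 0.00029). Flrt1 did so too (-0.51 ± 0.08, 0.000277, and -0.31 ± 0.08, 0.00807), while its relative Flrt3 did not fall in either. With GC and length trends removed, both calls of the combination ended, at -0.028 for Sox12 (0.795) and -0.059 for Flrt1 (0.685). Flrt1 also lost its call with the late sample number (-0.26, 0.0806).

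**Figure D4:**
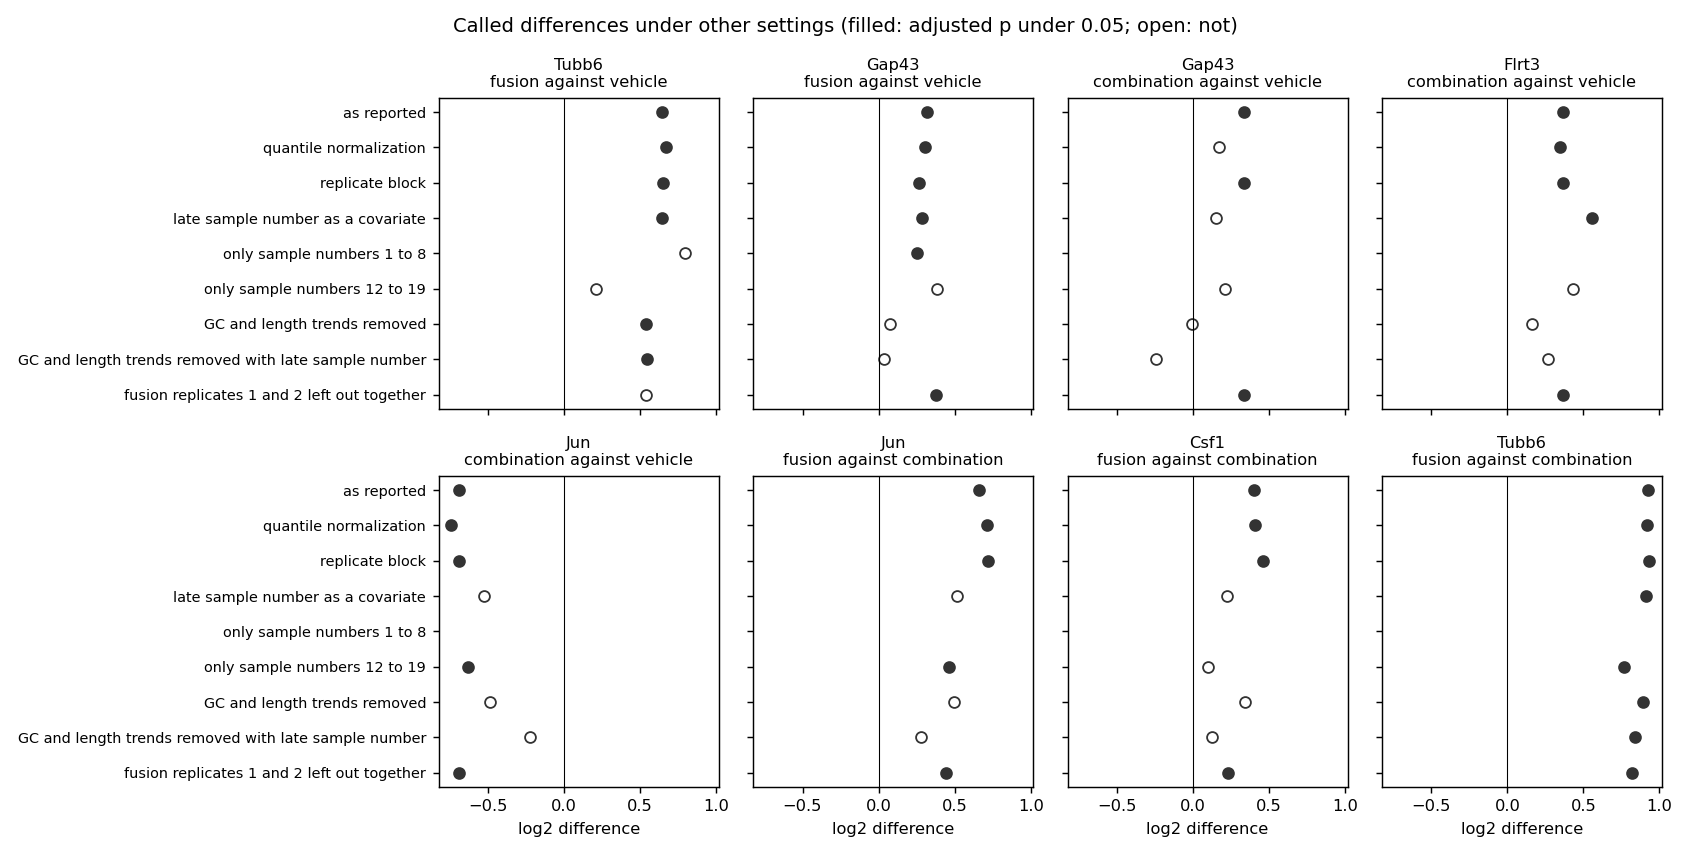
Log2 difference of each called member under the reported fit and 8 alternatives. Tubb6 for the fusion protein against the combination is filled in every fit shown. Gap43 moves to near 0 where only trends with GC content and length are removed. With the late sample number added to that removal, Gap43 is -0.24 for the combination against vehicle.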

How the data were processed

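PolyA-selected RNA of mouse DRG was measured in 16 libraries. The submitters' processing notes name FastQC, STAR, HTSeq, DESeq2 and the build GRCm38; versions are not given in the sources used here. The authors deposited variance-stabilised log2 values. Inverting the stabilising function, with 2 parameters estimated from the 60 smallest of 11441 distinct values, gave whole numbers for 100% of values within 0.01, and these are the scaled values. GC content stands in the deposited table as a percent. The deposited p-value columns name no comparison and were not used. Genes entered the tests when their mean was at least 1 above the lowest value (6.99 on the log2 scale), which left 13385. All libraries went into a single limma 3.58.1 model in R 4.3.3 (trend and robust, two-sided, Benjamini-Hochberg over all tested genes, threshold 0.05). The 95% intervals are not adjusted. The fit was tested on simulated data. Whether every library is from its own mouse is not stated in the labels, and p-values measure the spread between these samples. Coordinates and exonic lengths are from GENCODE M21 on GRCm38, to which 36429 genes matched. Plots used Python 3.11.15.

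The 10 genes, the gene lists and the alternatives were chosen with earlier results of these data known. Named genes were the 10, and up to 4 genes of lowest p per list and comparison among those past the threshold; exceptions are stated. The alternatives changed the filter (stricter or absent), the scaling (quantile or median), the limma options, the weighting of libraries, the groups fitted (the 2 compared), the log scale (scaled value plus 1) and the threshold (0.1 or 0.01). Others added a replicate block or the late sample number, kept either range of sample numbers, took out trends with GC content and length, or left out 1 library. Leaving out fusion protein replicates 1 and 2 together, and trend removal joined to the late sample number, were added once the values had been seen.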

Additional observations from a re-analysis of the deposited data

Results flagged for a closer look

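Flrt3 in combination replicate 1, at a scaled value of 485, lay far below the other 4 libraries of its group (580 to 615). On the log2 scale, the gap to its nearest neighbour was 0.75 of the group's range. In all 30 groups of libraries were checked, 3 for each of the 10 genes, and chance alone flags about 1 in 20 such groups. The same library was the lowest of its group for 7 of the 10 genes and the highest for Tubb6 (270).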

How the results depend on the processing

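Values are given for FV (fusion protein against vehicle), CV (combination against vehicle) and FC (fusion protein against combination), in that order where 3 stand together. The read depth is unknown, so counting error could not be computed, and Sox11, Sprr1a and Ecel1 were tested only without a filter. Leaving out 1 library at a time gave 2543 to 3749, 4033 to 5369 and 1999 to 5247 genes, and 2 to 3, 2 to 3 and 3 to 3 members. For Jun against vehicle with the fusion protein these fits gave -0.17 to 0.11, and for Gap43 between the treatments -0.070 to 0.018. Array weights gave 6106 (FV), 6993 (CV) and 6275 (FC) of 13385 genes, and 5 members for CV. Quantile normalization gave 2383 genes for FC. A threshold of 0.01 gave 1768, 2991 and 908 genes and 1 member each for FV and FC. Sample numbers 1 to 8 gave 2163 genes and 1 member for FV, and numbers 12 to 19 gave 247 genes and 0 members for FV and 764 genes and 1 member for CV. The late sample number gave 1 member each for CV and FC. Removing GC and length trends gave 1, 0 and 1 members and 1575 genes for FC, and with the late sample number 0 members and 1683 genes for CV and 921 genes for FC. Fusion protein replicates 1 and 2 left out gave 1 member for FV. Among libraries, leaving out fusion protein replicate 4 or combination replicates 2 or 5 moved the FC count of genes by over 1.5 times (2563, 1999 and 2496).

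Members that changed sign were mostly uncalled ones near 0. Fusion protein against vehicle: Jun was 0.023 with the replicate block, 0.046 for numbers 1 to 8, 0.0093 with GC and length trends removed and 0.054 with the late number added, Csf1 was -0.16 for numbers 12 to 19 and Gadd45a -0.022 without fusion protein replicates 1 and 2. Combination against vehicle: with the late number Atf3 was 0.26, Gadd45a 0.060 and Csf1 0.0094, and Gadd45a was 0.090 for numbers 12 to 19. With GC and length trends removed Gap43 was -0.0093, and with the late number added Gap43 was -0.24, Atf3 0.11, Gadd45a 0.13 and Csf1 0.21. Between the treatments Gap43 was 0.13 with quantile normalization, 0.013 with median centring, 0.14 with the late number, 0.17 for numbers 12 to 19, 0.084 with GC and length trends removed (Flrt3 0.080) and 0.039 without fusion protein replicates 1 and 2. With trends removed and the late number Gap43 was higher with the fusion protein by 0.28 in limma (adjusted p = 0.0462), and Gadd45a was -0.036. The causes were not tested.

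The replicate block gave 3216, 5195 and 3429 genes and ended no call of a member. Libraries with the same replicate number had correlated deviations of -0.196 to 0.598, over 0.1 in 7 of 15 pairs. Those with different numbers had -0.858 to 0.796, over 0.1 in 22 of 70 pairs. Of all libraries, 6 correlated best with their own number. These values do not decide whether the replicate numbers pair the samples.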

Other observations

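Markers of repair Schwann cells were mostly too low to test: 3 of 8 passed the filter. Between the treatments Gfap, a filament of activated glia, was higher with the fusion protein (1.96 ± 0.57, adjusted p = 0.0228), with mean scaled values of 259 ± 292 in vehicle (SD, n = 5), 535 ± 513 with the fusion protein (n = 6) and 36.6 ± 14.8 with the combination (n = 5). Against vehicle it did not pass, at 0.88 ± 0.57 (0.275) and -1.09 ± 0.59 (0.169). Without fusion protein replicates 1 and 2 the difference was 1.34 (0.0605).

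For each of the 5 called members, the tested genes with the most similar values over the 16 libraries were listed, as a description without a test. Tubb6 was most like the metallothioneins Mt1 (r = 0.976, rho = 0.968) and Mt2 (r = 0.975, rho = 0.962), metal-binding stress proteins, and the transglutaminase Tgm2 (r = 0.965, rho = 0.988). Jun was most like Stk40 (r = 0.949), Bcl3 (r = 0.946) and the neuropeptide precursor Vgf (r = 0.945). Csf1 was most like Clic4 (r = 0.952), Gap43 most like Pgm2 (r = 0.974), and Flrt3 most like Slc35f5 (r = 0.938). The libraries share groups and scaling, so these values include the differences between groups.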
